A study of Mus musculus with 12 samples.

Results

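The quantity described here is the recovery of each transcript with an antibody against Ythdf2, relative to the input RNA of the same tissue, compared between mouse retina and mouse cortex. For each gene it is log2(Ythdf2 immunoprecipitate / input) in the retina minus the same log2 ratio in the cortex, and it is called the tissue difference below. A positive value means that the ratio was higher in the retina. Genes were included when they had at least 20 counts in cortex input replicate 2, in retina input replicate 1 and in retina input replicate 2. The rule kept 10956 of the 52550 genes in the table, and 10092 of them are protein-coding. It uses input counts and not the tissue difference. All 10956 also passed the filter on low counts that left 20278 genes tested.

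Ythdf2 is a cytoplasmic protein whose YTH domain binds N6-methyladenosine (m6A), the most common internal modification of mRNA. Bound mRNAs are brought to the deadenylation machinery and degraded, so that Ythdf2 is known mainly as a reader that shortens the life of methylated transcripts. In the nervous system it has been studied in neural progenitors and in the dendrites of retinal ganglion cells. In RNA immunoprecipitation (RIP) the antibody pulls down the protein with the transcripts attached to it, and a transcript is scored by its level in the immunoprecipitate (IP) against the input.

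All animals were wild-type C57BL/6 mice. The cortex came from embryonic day 12.5 and the retina from postnatal day 0, so tissue and age cannot be told apart in any value below. Each tissue gave an input, a Ythdf2 IP and a Ythdf1 IP, each as 2 libraries. Tissue was dissociated before the RIP, and the labels do not say whether the replicates came from separate litters or how many animals were pooled. The p-values therefore measure the spread between these libraries, which may be technical. No library with an unrelated antibody was among the samples, and the input was the only background.

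The library labelled cortex input replicate 1 does not carry the profile of its label, with 8967 counts of Camk2a, a kinase of mature synapses, and 0 of Emx1, a cortical progenitor gene. It was left out, and the cortex ratio rests on 1 input library whose spread was taken from the other groups. The 11 libraries used held 19530226 to 40515980 counts. Protein-coding genes took 41.1% of the counts in cortex input replicate 2 and 22.4% and 38.6% in the cortex Ythdf2 IPs, against 8.37% to 11.5% in the retina inputs and retina Ythdf2 IPs. The markers matched the labels: Emx1 had at least 365 counts in the cortex input and Ythdf2 IPs and 0 in each retina library, and Crx, a photoreceptor regulator, had at least 844 in each retina library and 0 to 4 in the cortex libraries. Meningeal and mesenchymal markers (13 genes summed) stood at 2327 CPM of the protein-coding total in cortex input replicate 2 and at 514 and 764 in the cortex Ythdf2 IPs. None of the 13 was at 0 in these cortex libraries, and 4 to 9 of them, with Dcn, Lum and Postn, were at 0 in each retina library. The sums were 327 and 367 CPM in the retina inputs and 167 and 144 in the retina Ythdf2 IPs. Igf2, a fetal growth factor and 1 of the 13, made up most of the sum in cortex input replicate 2 and in these retina libraries. It had 1143 and 1389 counts in the retina inputs and 240 and 217 in the retina Ythdf2 IPs. The lower sum in IP than in input thus describes mainly Igf2, and the other markers were not summed apart. Endothelial markers (12 genes) went from 285 and 273 CPM in the retina inputs to 767 and 787 in the retina Ythdf2 IPs, against 271 in the cortex input and 166 and 264 in the cortex Ythdf2 IPs. Each was detected in the cortex, and Emcn, Esam and Tie1 were at 0 in the retina inputs and Ythdf2 IPs. The part of either cell type in the results was not tested. CPM in the rest of the text is relative to the normalised library size. Over the members, replicates correlated at a Spearman coefficient of 0.953 in the cortex Ythdf2 IPs and 0.965 in the retina Ythdf2 IPs, and at 0.826 in the retina inputs.

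The comparison asked which transcripts differ between the tissues in how strongly they are recovered with Ythdf2. In the retina 84 members had a higher ratio and 87 a lower one at an adjusted p under 0.05 (edgeR quasi-likelihood test, two-sided, Benjamini-Hochberg adjustment over 20278 genes). That was 0.767% and 0.794% of the members, beside 0.444% and 0.473% of all genes tested. Of all genes tested, 2831 had an unadjusted p under 0.05. The median over the members was 0.05, with quartiles of -0.64 and 0.70. Of the members higher in retina 78 are protein-coding, and of those lower 43 are. In bulk tissue a change in the number of cells of a type and a change in the RNA per cell cannot be told apart. The counts depended on the libraries and on the fit: with the 7 libraries of this comparison alone they were 6 higher and 19 lower, and leaving out 1 library at a time gave 10 to 611 higher and 21 to 285 lower. The lowest counts came without retina Ythdf2 IP replicate 1 and the highest without retina input replicate 2. Leaving out either retina input, either retina IP of Ythdf1 or Ythdf2, or cortex Ythdf2 IP replicate 2 moved at least 1 count by over 1.5 times. With DESeq2 size factors in place of TMM scaling 74 were higher and 116 lower, and with the replicate number as a block 91 were higher and 139 lower.

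**Figure D1:**
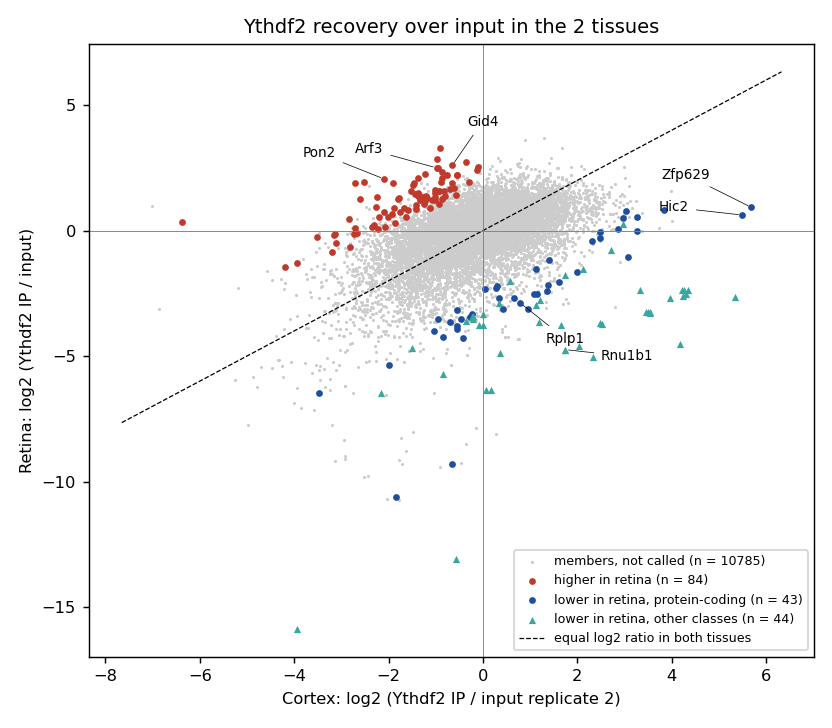
Each point is a member; the x axis is log2(Ythdf2 IP / input) in the cortex and the y axis the same ratio in the retina, with the dashed line where both are equal. The 84 members higher in retina (red) lie above the cloud, mostly with a positive retina value and a negative cortex value; the 87 lower members (blue circles, protein-coding; green triangles, other classes) spread far below it.

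The 2 sets differed in how the tissue difference was split between the IPs and the inputs. For the 84 higher members the median ratio was 1.30 in the retina and -1.42 in the cortex on the log2 scale. Between tissues, their level was higher in the retina IPs by a median of 1.84, with 58 called (1685 of all 10956 members were). It was lower in the retina inputs by a median of -0.94, with 35 called (1533 of all members). For the 87 lower members the median ratio was -3.14 in the retina and 1.14 in the cortex. Between the IPs their level was lower in the retina by a median of -0.84, with 27 called (1373 of all 10956 members were). It was far higher in the retina inputs than in the cortex input, with a median of 2.98 and 79 called (1421 of all members). The IP difference was the larger of the 2 in 55 of the 84 higher members and in 14 of the 87 lower ones, beside 4743 of all 10956 members. These parts share libraries with the tissue difference and describe how it is made up.

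**Figure D2:**
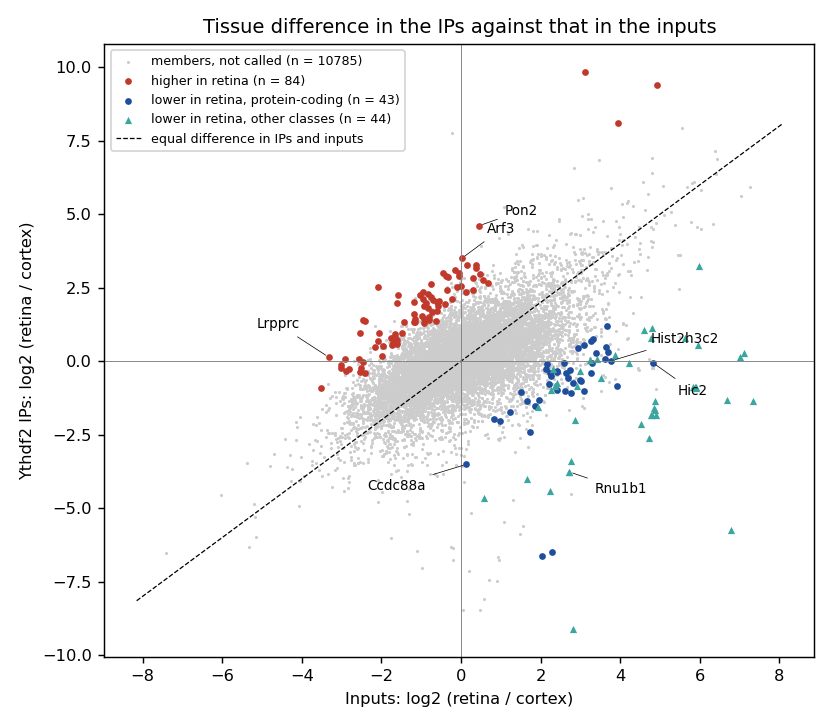
For each member the x axis is the log2 difference between retina and cortex in the inputs, and the y axis the same difference between the Ythdf2 IPs; on the dashed line the tissue difference is 0. Members higher in retina (red) have a median of 1.84 in the IPs and -0.94 in the inputs. Those lower in retina (blue circles and green triangles) have a median of 2.98 in the inputs and -0.84 in the IPs.

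The transcripts of the readers themselves gave tissue differences that did not pass the test. Ythdf2 mRNA stood at 19.8 CPM in the cortex input, at 14.6 and 31.4 in the cortex IPs, 4.88 and 12.7 in the retina inputs and 12.2 and 10.2 in the retina IPs. Between tissues its log2 difference was -1.17 in the inputs and -1.04 in the IPs, neither of them called. Replicates were far apart in the retina inputs and the cortex IPs, and close in the retina IPs. The tissue difference was 0.13 (SE 0.67). Ythdf1 gave 0.16 (SE 0.47) and Ythdf3 -1.08 (SE 0.79). None of the 13 members among the YTH readers and other m6A binders, and none of the 13 writers and erasers that add or remove m6A, was called (medians 0.16 and 0.24, beside 0.05 for all members). The same held for 38 genes of deadenylation, decapping and decay, the machinery that Ythdf2 recruits (median 0.23). Of 5 genes listed for their link to Ythdf2 in retinal ganglion cells, a list that may have been chosen on libraries such as these, none passed the test. Strn, the scaffold protein striatin, had the largest value at 2.10 (SE 0.70, adjusted p 0.17). It was called in 3 of 22 alternatives, among them without retina input replicate 2 at 3.33 (adjusted p 0.0018), and stood at 1.45 without retina input replicate 1. Kalrn, a guanine nucleotide exchange factor of dendrites, had -0.09 (SE 0.50), with a log2 ratio to input of 1.03 in the retina and 1.12 in the cortex. Of the 5 genes, 4 were called above input in the retina (9.53% of all members were) and 0 in the cortex (3.82%). A list chosen on such libraries would favour these counts, so they are no separate evidence.

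The values of the 84 higher members ran from 1.98 to 6.74, the last in Moxd1, which had 0 counts in both cortex IPs and too low a level to be described further. The genes that follow had the 12 largest differences among protein-coding members with a mean of at least 5 CPM. A first kind had similar inputs and a raised retina IP. Arf3 encodes a small GTPase of the Golgi (chr15:98736634-98763214, minus strand, GRCm38). It stood at 22.7 CPM in the cortex input and at 25.2 and 20.97 in the retina inputs, at 13.6 and 9.49 in the cortex IPs, and at 136 and 125 in the retina IPs. The 2 retina IPs were the only high libraries. The tissue difference was 3.48 (SE 0.47, adjusted p 0.0017).

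Gid4, the substrate receptor of a ubiquitin ligase (chr11:60417145-60450927), had the same form. Its level was 16.4 CPM in the cortex input, 12.1 and 17.5 in the retina inputs, 11.5 and 9.37 in the cortex IPs, and 95.2 and 84.1 in the retina IPs. Again the retina IPs stood alone, and the tissue difference was 3.25 (SE 0.50, adjusted p 0.0052). Gid4 overlaps Atpaf2 on the other strand, and how strand was treated in the counting is not given in the sources used here. Scamp1, a secretory carrier membrane protein (chr13:94201310-94285857), was at 8.97 CPM in the cortex input, 4.41 and 8.61 in the retina inputs, 4.57 and 3.14 in the cortex IPs, and 29.5 and 32.5 in the retina IPs. The difference was 3.47 (SE 0.54, adjusted p 0.0054).

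Pon2, an intracellular lactonase with antioxidant activity (chr6:5264147-5298455), joined a raised retina IP to a lowered cortex IP. Its level was 6.38 CPM in the cortex input and fell to 1.92 and 1.10 in the cortex IPs. In the retina it went from 8.35 and 9.13 CPM in the inputs to 36.3 and 36.5 in the IPs. No value of the retina IPs came near those of the cortex, and the tissue difference was 4.15 (SE 0.56, adjusted p 0.0015). Sdc4, a heparan sulphate proteoglycan of the cell surface (chr2:164424247-164443887), differed mainly through the cortex. Its levels were 9.80 CPM in the cortex input, 1.37 and 1.38 in the cortex IPs, 8.47 and 6.52 in the retina inputs and 10.5 and 10.01 in the retina IPs, a tissue difference of 3.28 (SE 0.53, adjusted p 0.0072).

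A second kind had less input RNA in the retina, with an equal or higher level in the retina IP. Cog7, a subunit of the complex that tethers vesicles to the Golgi (chr7:121879363-121981711), was at 17.6 CPM in the cortex input and at 3.55 and 1.87 in the cortex IPs. In the retina it was at 5.44 and 2.88 CPM in the inputs and at 17.8 and 13.1 in the IPs. The order of IP and input was thus opposite in the 2 tissues, and the tissue difference of 4.60 (SE 0.61, adjusted p 0.0013) was the largest among the named genes. Lrpprc, which stabilises mitochondrial mRNAs (chr17:84705247-84790789), was at 20.2 CPM in the cortex input, 12.5 and 8.37 in the cortex IPs, 0.985 and 3.04 in the retina inputs and 11.4 and 11.6 in the retina IPs. Its IP levels overlapped between tissues and only the inputs were apart, for a difference of 3.46 (SE 0.66, adjusted p 0.021). Rab8b, a GTPase of exocytic traffic (chr9:66843664-66919687), likewise had 67.2 CPM in the cortex input against 5.79 and 17.4 in the retina inputs. Its IPs held 27.5 and 24.5 CPM in the cortex and 52.2 and 47.6 in the retina, and its difference was 3.48 (SE 0.61, adjusted p 0.013).

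The other 4 of the 12 also had less input RNA in the retina and a higher level in the retina IP. Agpat4, an acyltransferase of phospholipid synthesis (chr17:12118704-12219645), gave a tissue difference of 3.83 (SE 0.57). Rcan2, a regulator of calcineurin (chr17:43801351-44039516), gave 3.78 (SE 0.59), and Rcn2, a calcium-binding protein of the endoplasmic reticulum (chr9:56041845-56061882), gave 3.58 (SE 0.60). St3gal5, the synthase of the ganglioside GM3 (chr6:72097592-72154571), gave 3.36 (SE 0.51), and overlaps Gm29438 on the same strand. Adjusted p for these 4 ran from 0.0047 to 0.0097. In each of the 4 the retina IPs were higher than the retina inputs and the cortex IPs lower than the cortex input. The log2 difference between the inputs was -1.59 in Agpat4, -2.42 in Rcan2 and -1.61 in Rcn2, each called lower in the retina. In St3gal5 it was -0.75 and not called.

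**Figure D3:**
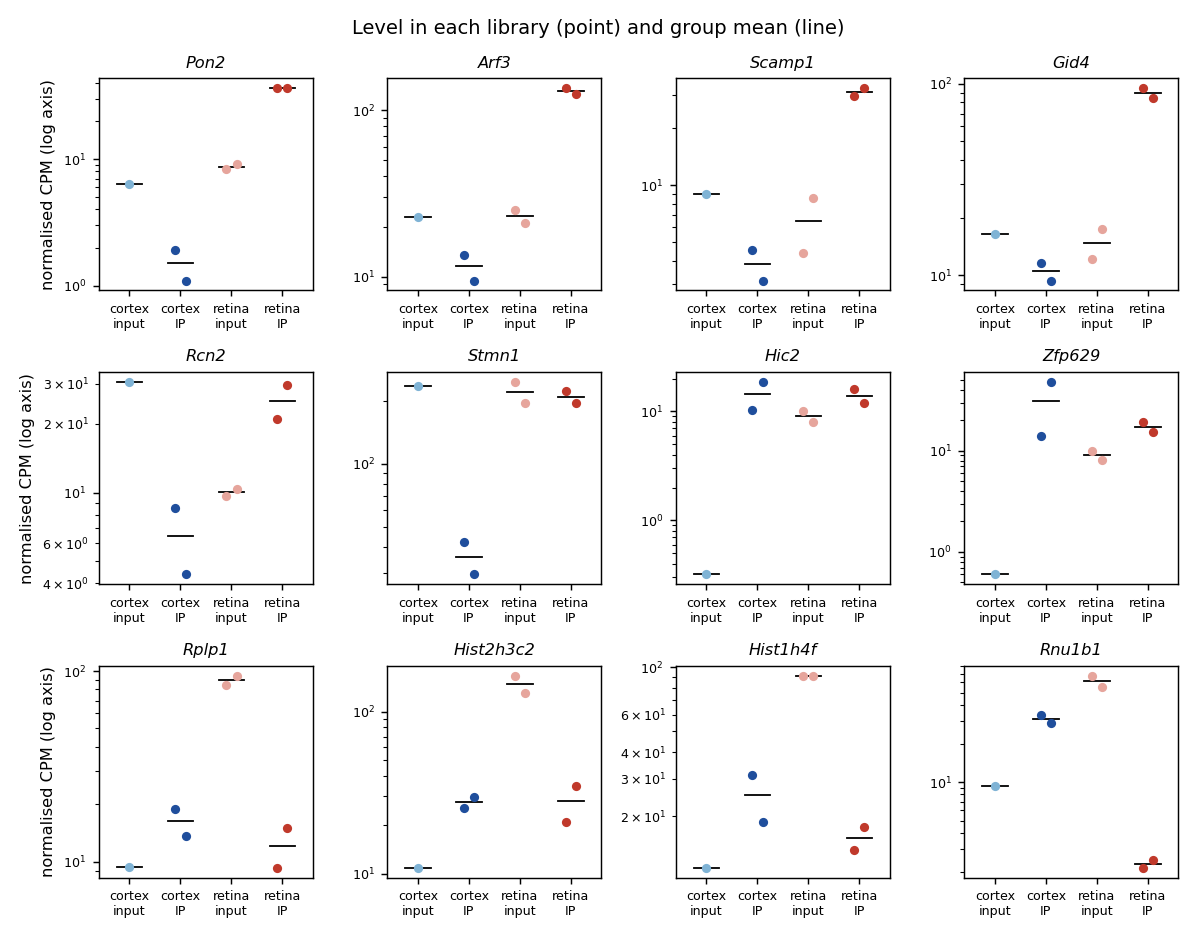
Normalised CPM on log axes for 12 members, 1 point per library and a line at the group mean, in cortex input replicate 2, cortex Ythdf2 IPs, retina inputs and retina Ythdf2 IPs. In Pon2, Arf3, Scamp1 and Gid4 the retina IPs stand alone at the top; in Hic2 and Zfp629 the single cortex input stands alone at the bottom, at 0.319 and 0.601 CPM; in Rplp1, the histones and Rnu1b1 the retina inputs are highest.

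The growth and metabolism lists that follow held 1 or 2 higher members each, a share to be read against the 0.767% of all members that were higher. Stmn1, whose product stathmin destabilises microtubules (chr4:134468320-134473843), was at 236 CPM in the cortex input and at 246 and 195 in the retina inputs. Its IPs held 42.3 and 29.7 CPM in the cortex and 223 and 194 in the retina, so that the transcript was depleted in the cortex IPs and near its input level in the retina. The tissue difference was 2.63 (SE 0.53, adjusted p 0.029), and Stmn1 was the single call among 34 members of the neuronal cytoskeleton and axon growth list (median 0.16). Of 77 nuclear genes of oxidative phosphorylation 2 were higher: Sdha of complex II at 2.33 (SE 0.47, adjusted p 0.029) and Uqcrfs1 of complex III at 2.36 (SE 0.50, adjusted p 0.036). Both missed the threshold with the replicate block, at an adjusted p of 0.058 and 0.052, and the median of that list was negative at -0.52. Mrpl18 was the 1 call among 78 mitochondrial ribosomal proteins (2.65, SE 0.54, median of the list -0.13), and its gene overlaps Tcp1 on the other strand. Its transcript was called below input in both tissues, at -1.29 in the retina and -3.94 in the cortex. Among 61 translation factors Eif2s3x, the gamma subunit of eIF2, was called at 2.18 (SE 0.49, median 0.36). Rrm1, the large subunit of ribonucleotide reductase, was the 1 call among 36 genes of S and M phase at 2.18 (SE 0.48, adjusted p 0.043, and 0.061 with the block), and the median of that list was 0.46. Among 215 Zfp zinc finger genes Zfp689 was higher (2.77, SE 0.62, adjusted p 0.047), and overlaps B130055M24Rik on the other strand.

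Among lower protein-coding members of sufficient level, those with the most negative values were a pair of zinc finger genes of long transcript, and both turned on the single cortex input. Hic2, a BTB zinc finger repressor (chr16:17233572-17263430), had 25 counts there, or 0.319 CPM, against 10.3 and 18.7 CPM in the cortex IPs. In the retina it stood at 10.2 and 8.01 CPM in the inputs and 15.998 and 11.97 in the IPs. Its IP levels overlapped between the tissues, and the tissue difference was -4.87 (SE 0.65, adjusted p 0.0015). Zfp629 (chr7:127607031-127615797) had 47 counts in that input, or 0.601 CPM, 14.2 and 48.1 CPM in the cortex IPs, 10.04 and 8.17 in the retina inputs and 19.3 and 15.3 in the retina IPs. Its difference was -4.77 (SE 0.83, adjusted p 0.014). Hic2 was 1 of 35 members of the BTB list (median -0.11) and Zfp629 1 of 215 in the Zfp list (median -0.31), each the only lower call of its list.

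Ccdc88a, which encodes the actin-binding protein girdin (chr11:29373658-29510808), fell by its IP. Its input was 7.80 CPM in the cortex and 4.18 and 13.0 in the retina, while the IPs held 32.1 and 15.6 CPM in the cortex and 1.61 and 2.56 in the retina. The difference was -3.65 (SE 0.81, adjusted p 0.049). Zswim9 (chr7:13258967-13278721), which overlaps Lig1 on the other strand, had higher cortex IPs of 10.3 and 14.03 CPM and lower retina IPs of 1.61 and 2.98, for a difference of -4.14 (SE 0.73, adjusted p 0.013).

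Transcripts of the replication-dependent histones made the largest listed group of lower coding members. These genes are expressed in S phase, lack introns, and end in a conserved stem-loop in place of a poly(A) tail. Of 60 members, 10 were lower in the retina and 0 higher, beside 0.794% lower among all members, and 59 of the 60 had a negative value (median -2.30). In the retina 46 of the 60 were below input in the Ythdf2 IP (13.3% of all members and 7.64% of all genes tested were), and in the cortex 0 were (8.92% and 5%) and 1 was above input. The median level was 1.71 higher in the retina inputs than in the cortex input and -0.63 between the IPs. With the replicate block 32 of the 60 were lower, and with the 7 libraries of the comparison alone 0 were. Leaving out 1 library gave 0 and 1 without retina Ythdf2 IP replicates 1 and 2, 5 without either retina Ythdf1 IP or cortex Ythdf2 IP replicate 2, 27 without retina input replicate 2 and 28 without cortex Ythdf2 IP replicate 1. Many of these genes are near-identical copies, so that reads may be divided among them. The genes shown here for their stem-loop are 4 of the 10, with the paired arms and the loop of 4 bases in capitals, on the transcript strand of GRCm38:
Hist2h3c2 (chr3:96238478-96238507): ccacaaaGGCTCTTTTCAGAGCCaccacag
Hist1h3c (chr13:23745040-23745069): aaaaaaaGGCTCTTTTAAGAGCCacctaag
Hist1h4f (chr13:23551284-23551313): tctcaaaGGCCCTTTTCAGGGCCacccact
Hist1h4j (chr13:21735430-21735459): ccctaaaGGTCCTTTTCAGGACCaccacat

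A stem-loop of this form, an arm GGNNNT, a loop TTTA or TTTC and the arm's reverse complement on the transcript strand, was found in the longest annotated mRNA of 35 of 58 coding histone members and of 4 of 10034 other coding members, 0.386% of all coding members. The 35 had a median tissue difference of -2.32, and the 23 without one in that mRNA had -2.16. Of the 10 histones called lower, 6 had it. The annotated mRNA ends with the stop codon in Hist1h2ai, Hist1h3h and Hist1h4k, and 1 base beyond it in Hist1h2af. In these the search could not reach a stem-loop beyond the coding sequence. A missing match therefore does not show that a transcript lacks one, and the 2 medians do not compare histones with and without it.

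Hist2h3c2, an H3 gene (chr3:96238108-96239127), stood at 10.8 CPM in the cortex input and at 25.5 and 29.8 in the cortex IPs. Its retina inputs held 166 and 129 CPM and its retina IPs 20.9 and 34.9. The IPs of both tissues overlapped, and the retina inputs were the 2 high libraries. The tissue difference was -3.76 (SE 0.58, adjusted p 0.0054). Hist1h4f, an H4 gene (chr13:23551258-23551648), had 11.4 CPM in the cortex input, 31.3 and 18.9 in the cortex IPs, 91.1 and 91.5 in the retina inputs and 13.9 and 17.8 in the retina IPs, a difference of -3.67 (SE 0.64, adjusted p 0.013). Hist1h4j was below input in the retina (log2 -1.64, SE 0.38, adjusted p 0.0099) and above it in the cortex (1.99, SE 0.50, adjusted p 0.024), a difference of -3.63. The other calls were Hist1h2af at -4.09, Hist1h2ai at -3.62, Hist1h4k at -3.55, Hist1h3c at -3.54, Hist1h3h at -3.36, Hist1h3f at -3.26 and Hist1h3e at -3.02. Hist1h2ai overlaps Gm44367 on the other strand.

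Ribosomal protein transcripts, short and among the most abundant of the cell, held lower members as well. Of 88 cytosolic ribosomal protein members 9 were lower and 0 higher, beside 0.794% lower among all members, and 73 had a negative value (median -1.10). They were below input with Ythdf2 in both tissues, with a median ratio of -2.48 in the retina and -1.13 in the cortex. In the retina 74 of the 88 were called below input (13.3% of all members) and in the cortex 32 (8.92%). Rplp1, a protein of the ribosomal stalk (chr9:61913284-61914542), held 9.41 CPM in the cortex input against 84.9 and 94.5 in the retina inputs. Its IPs overlapped, with 18.9 and 13.6 CPM in the cortex and 9.26 and 15.1 in the retina, and the tissue difference was -3.67 (SE 0.60, adjusted p 0.0082). A further 7 were Rpl35 at -3.38, Rps29 at -3.16, Rps28 at -3.10, Rpl37 at -3.06, Rpl36 at -2.97, Rpl31 at -2.57 and Rps14 at -2.39. Ribosomal protein genes have many processed pseudogenes, and reads may be shared with them. With the 7 libraries alone 0 of the 88 were lower, and with the block 15. Leaving out 1 library gave 0 without retina Ythdf2 IP replicate 1, 2 without its replicate 2 or either retina Ythdf1 IP, 5 without cortex Ythdf2 IP replicate 2 and 28 without retina input replicate 2.

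The 13 mitochondrially encoded mRNAs, which are made and kept inside mitochondria, were below input in the retina Ythdf2 IP in all 13 cases (13.3% of all members were) and in the cortex in 9 (8.92%). Their median ratio was -5.28 in the retina and -2.93 in the cortex. All 13 tissue differences were negative (median -1.92), and mt-Nd3, a subunit of complex I, was the 1 call, beside 0.794% of all members. It had 19.8 CPM in the cortex input, 16.2 and 5.83 in the cortex IPs, 212 and 296 in the retina inputs and 12.7 and 14.4 in the retina IPs, a difference of -3.38 (SE 0.74, adjusted p 0.044, and 0.072 with the block). The call was lost in 11 of 22 alternatives and the value turned to 1.75 in 1 more, with both cortex inputs in the fit. Snrpd2, a core protein of the spliceosomal particles, was the only call among 35 Sm and LSm members at -2.63 (SE 0.58, adjusted p 0.045).

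Small nuclear RNAs (snRNAs), the RNA parts of the spliceosome, had the highest share of lower calls of any transcript class. Of 37 snRNA members 23 were lower in the retina, 62.2% beside 0.794% of all members, and 0 were higher (median -5.06). With both cortex inputs in the fit 4 were. In the retina their median ratio was -3.26 and in the cortex 1.74, and their level in the retina inputs exceeded that in the cortex input by a median of 4.72. Gene copies of 1 snRNA are nearly alike, and the 23 hold 18 distinct sequences, so that they are not 23 separate observations. They were grouped by their first 15 bases, given in capitals below in the whole sequence of 1 member of each of 3 groups (GRCm38, transcript strand), since these families hold 17 of the 23 lower snRNAs:
Rnu1b1 (U1, chr3:96359953-96360117, minus strand): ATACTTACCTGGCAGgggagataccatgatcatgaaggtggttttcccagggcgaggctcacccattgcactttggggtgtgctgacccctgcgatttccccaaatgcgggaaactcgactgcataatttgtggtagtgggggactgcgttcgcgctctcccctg
Rnu2-10 (U2, chr11:101658238-101658428, plus strand): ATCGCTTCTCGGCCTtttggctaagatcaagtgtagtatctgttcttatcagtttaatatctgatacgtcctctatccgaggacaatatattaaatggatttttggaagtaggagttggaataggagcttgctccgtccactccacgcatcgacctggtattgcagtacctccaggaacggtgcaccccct
Gm24407 (chr5:115490254-115490394, plus strand): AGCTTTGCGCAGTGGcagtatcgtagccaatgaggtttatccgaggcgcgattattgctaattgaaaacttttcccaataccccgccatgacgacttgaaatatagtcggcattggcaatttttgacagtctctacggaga

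The U2 group had 11 members, all 11 lower, with values from -8.00 to -5.69. The U1 group had 4 lower of 13, from -7.35 to -6.24, and the group of Gm24407 2 of 2, at -6.87 and -6.83. In U1 the lower members were reduced in the retina IPs (median -3.19 between tissues) as well as raised in the retina inputs (3.72). In the group of Gm24407 the median between tissues was 0.21 in the IPs and 7.06 in the inputs.

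Rnu1b1, an embryonic form of U1, held 9.33 CPM in the cortex input, 33.3 and 28.9 in the cortex IPs, 67.8 and 54.9 in the retina inputs and 2.13 and 2.44 in the retina IPs. The IPs stood above the input in the cortex and far below it in the retina, and no groups overlapped. The tissue difference was -6.48 (SE 0.59, adjusted p 6.1e-05). Rnu1b2 has a sequence identical to that of Rnu1b1 and nearly the same values, so that both count as 1 observation. In Rnu2-10 the cortex input held 4.01 CPM, the cortex IPs 70.7 and 22.8, the retina inputs 226 and 259 and the retina IPs 21.3 and 29.4, a difference of -6.80 (SE 0.82, adjusted p 5.6e-04). Its IP levels overlapped between the tissues.

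**Figure D4:**
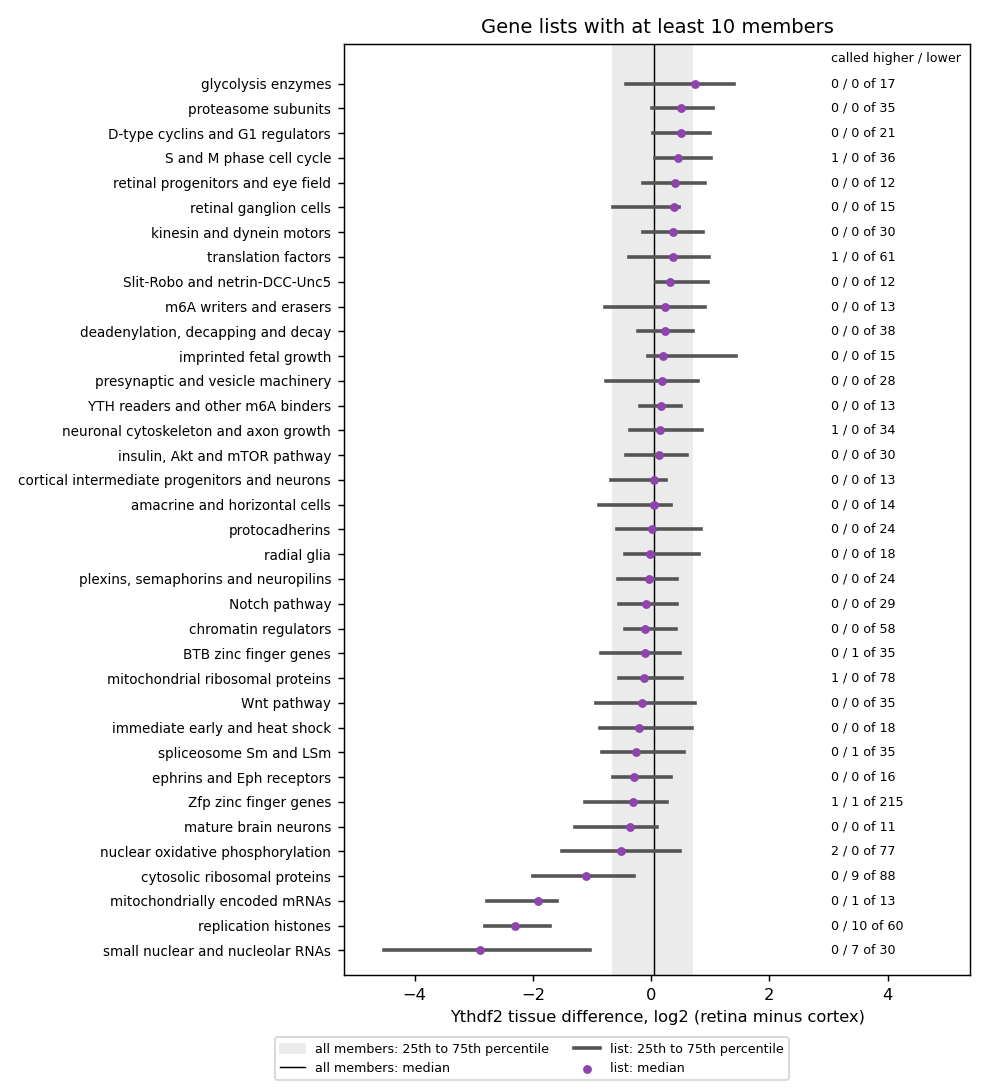
Median tissue difference (purple point) and interquartile range (grey bar) of the gene lists with at least 10 members, on the log2 scale, with the numbers called higher and lower at the right; the shaded band is the interquartile range of all members, -0.64 to 0.70. The lists of small nuclear and nucleolar RNAs, replication histones, mitochondrially encoded mRNAs and cytosolic ribosomal proteins lie to its left, at medians of -2.89, -2.30, -1.92 and -1.10; to its right lies glycolysis, at 0.73.

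Signalling and cell type lists held no call. Of 24 plexins, semaphorins and neuropilins, the receptors and ligands of repulsive axon guidance, 0 were called for the tissue difference (median -0.03). Yet their ratio was raised in both tissues, by a median of 1.10 in the retina and 1.08 in the cortex, with 12 called above input in the retina (9.53% of all members and 5.82% of all genes tested were) and 3 in the cortex (3.82% and 2.48%). The insulin, Akt and mTOR pathway had 0 calls among 30 members (median 0.13), with 11 above input in the retina and 0 in the cortex. The Notch pathway (29 members, median -0.09), the Wnt pathway (35, -0.15) and chromatin regulators (58, -0.11) had no call either. Proteasome subunits (35 members, median 0.51), glycolysis enzymes (17, 0.73) and D-type cyclins with other regulators of G1 (21, 0.51) had the highest medians among lists of at least 10 members, and no call. No marker list of cortical, retinal, vascular or mesenchymal cells held a call, from 2 members in the microglia and endothelial lists to 18 in the radial glia list.

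Many of the members called lower were short. Of the 87 lower members 61 had a longest transcript under 1 kb, 70.1% beside 8.44% of all members, and their median length was 399 bases. Coding members higher in retina had a median of 3210 bases, beside 3371 for all coding members, and coding members lower in retina 1020, with 20 of the 43 under 1 kb. Recovery with Ythdf2 rose with length in both tissues. In the shortest quintile of coding members (204 to 1899 bases) the median ratio was -1.01 in the retina and -0.85 in the cortex, and in the longest quintile it was 0.61 and 0.46. The tissue difference was -0.26 in the shortest quintile and 0.11 to 0.20 in the other 4. The shortest quintile held 11 higher and 28 lower members, and the longest (from 5509 bases) 1 higher and 8 lower. The quintiles between them held 18, 24 and 24 higher and 1, 1 and 5 lower. Of all 10092 coding members 78 were higher and 43 lower. With a length trend taken out of each library 171 members were higher and 108 lower.

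The tissue difference also went with GC content. Its median fell from 0.25 and 0.42 in the lowest pair of quintiles to -0.42 in the highest (above 55.9% GC), where 4 members were higher and 23 lower. In the retina the median ratio changed from -0.03 to 0.15 over the quintiles, and in the cortex from -0.33 to 0.51. The inputs moved as well: in the highest quintile the retina inputs exceeded the cortex input by a median of 0.87. These medians are across genes, which share the same 7 libraries.

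**Figure D5:**
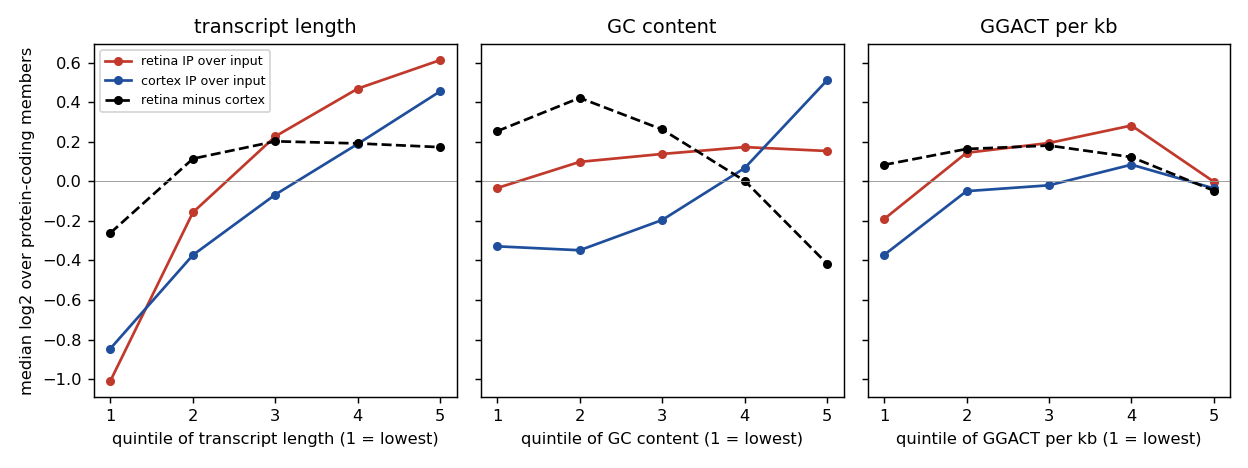
Median log2 ratio of IP to input in the retina (red) and cortex (blue) and their difference (black, dashed) in quintiles of coding members by transcript length, GC content and number of GGACT per kb. Both tissues rise with length; with GC content the cortex line goes from -0.33 to 0.51 and the retina line from -0.03 to 0.15, and the difference stays between -0.05 and 0.18 over the quintiles by GGACT.

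The motif GGACT, the most frequent form of the m6A consensus, was counted on the transcript strand of the longest mRNA. It occurred in 93.1% of coding members at a median of 1.04 per kb, in 92.3% of the coding members higher in retina (0.962 per kb) and in 69.8% of those lower (0.832 per kb). Over quintiles of GGACT per kb the median tissue difference ran from -0.05 to 0.18. The match nearest to the stop codon, the region where m6A is concentrated in most mRNAs, is shown for 4 higher members and 2 lower ones, with GGACT in capitals:
Pon2 (chr6:5264882-5264906): ggcttgtgcaGGACTactgatagat
Arf3 (chr15:98740355-98740379): atgaaggcttGGACTggctggccaa
Cog7 (chr7:121929231-121929255): tgactcaagaGGACTctgcattaga
Gid4 (chr11:60443280-60443304): aatattgtcaGGACTttggggaatt
Hic2 (chr16:17258404-17258428): gaaggtgaagGGACTggggacaggg
Zfp629 (chr7:127610538-127610562): cctgagtgtaGGACTggccgtgggg
In Arf3 the match lies 37 bases before the end of the coding sequence and in Pon2 425 bases beyond it, in the 3′ untranslated region. On a scale where negative values lie before that end, the match is at -223 in Cog7, -521 in Zfp629 and -755 in Hic2. In Gid4 it is at 1248, in the 3′ untranslated region. The nearest match can thus lie far from the stop codon. The 6 mRNAs hold 8 matches in Arf3, 7 in Cog7, 5 in Gid4 and in Hic2, 3 in Zfp629 and 2 in Pon2. No methylation was measured in these libraries, and a match is not a mapped site.

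The Ythdf1 IPs of the same tissues gave a second comparison in which the inputs cancel: the difference between retina and cortex in the Ythdf2 IPs minus that in the Ythdf1 IPs. Of the members 377 were higher for Ythdf2, 3.44%, and 109 lower, 0.995% (1.92% and 0.597% of all genes tested). Without 1 library the sum of 486 moved between 13 and 1419, lowest without retina Ythdf1 IP replicate 1. The tissue differences with the 2 antibodies share the inputs, and their values are set side by side. For the 84 higher members the median was 2.63 with Ythdf2 and 0.84 with Ythdf1. The 87 lower members had -3.65 and -3.97, and the median antibody difference was 1.84 for the higher members and 0.01 for the lower ones. Both sets were chosen on a difference that holds the same Ythdf2 IPs as the antibody difference, so these medians are no separate evidence about the antibodies. The same holds for Arf3, Pon2, Scamp1 and Cog7 below.

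Arf3, Pon2 and Scamp1 were high with Ythdf2 and not with Ythdf1. In the retina Ythdf1 IPs Arf3 held 11.7 and 11.1 CPM, against 136 and 125 in the retina Ythdf2 IPs, with 12.2 and 10.4 in the cortex Ythdf1 IPs. Its antibody difference was 3.49 (SE 0.45, adjusted p 0.0019). In Pon2 it was 4.05 (SE 0.54, adjusted p 0.0027) and in Scamp1 3.03 (SE 0.51, adjusted p 0.0077). Cog7 did not follow: its tissue difference was 3.54 with Ythdf1 and 4.60 with Ythdf2, and the antibody difference was 1.07 (SE 0.56, adjusted p 0.33).

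Among coding members, the antibody difference with the smallest p was that of Igf2, an imprinted growth factor of the fetus that fibroblasts and meninges express strongly. With Ythdf1 the cortex IPs held 294 and 434 CPM and the retina IPs 5.44 and 6.26; with Ythdf2 the cortex IPs held 16.3 and 9.64 and the retina IPs 13.8 and 12.9. The 2 cortex Ythdf1 IPs were the high libraries, and the antibody difference was 6.00 (SE 0.54, adjusted p 6.2e-05). Scaled as in the opening, the summed meningeal and mesenchymal markers stood at 2709 and 3875 CPM in the cortex Ythdf1 IPs. In the cortex Ythdf2 IPs they stood at 514 and 764. Igf2 is 1 of these markers and made up most of the sum in the cortex Ythdf1 IPs. It had 10518 and 7075 counts there, of 5663906 and 2396240 in protein-coding genes. The sum is therefore no separate observation, and the part of these cells in the value was not tested. Cmpk1, a nucleotide kinase, differed by 4.35 (SE 0.54), Atp6v1g1, a subunit of the vacuolar proton pump, by 4.59 (SE 0.57), and Ndfip1, an adaptor of Nedd4-family ubiquitin ligases, by 4.15 (SE 0.51), each at an adjusted p of 0.0018.

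In the other direction Zfp407, a zinc finger gene, had 11.9 and 12.9 CPM in the retina Ythdf1 IPs and 3.28 and 2.08 in the retina Ythdf2 IPs. In the cortex the order was reversed, with 5.92 and 4.17 CPM with Ythdf1 and 23.9 and 38.7 with Ythdf2. The antibody difference was -4.83 (SE 0.51, adjusted p 4.5e-04), while the tissue difference with Ythdf2 was 0.20 (SE 0.55). Mab21l1, a gene of eye development, gave -2.60 (SE 0.47, adjusted p 0.011) and overlaps Nbea on the other strand. Lrfn4, a synaptic adhesion protein, gave -2.58 (SE 0.48, adjusted p 0.011). Urgcp gave -2.47 (SE 0.49, adjusted p 0.018), and overlaps Mrps24 and Ube2d-ps. Of these 4 only Lrfn4 was called for the tissue difference, at -2.74 (SE 0.56, adjusted p 0.031), and its gene overlaps Pcx on the other strand.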

How the data were processed

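The authors deposited raw read counts per gene and FPKM for 12 libraries; per the submitters' processing notes reads were mapped with STAR 2.5 and counted with HTSeq (version not given) on GRCm38. The strand setting, the annotation and the gene length behind the FPKM are in none of the sources used here. Counts were the basis of all tests; the deposited FPKM entered 1 alternative, as log2(FPKM + 1) in limma. GENCODE M21 (GRCm38) gave names, classes and coordinates for 52403 of 52550 genes, and transcript sequences.

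edgeR 4.0.16 (R 4.3.3) with TMM scaling and filterByExpr fitted 1 mean per group to 11 libraries (robust glmQLFit, 5 residual degrees of freedom). CPM are counts divided by the TMM-scaled library size. The SE is the size of the log2 value divided by the square root of F. Differences were called at an adjusted p under 0.05. The 12 largest and 12 smallest differences were named among called coding members without clone or predicted names. These had an absolute log2 of at least 1, a mean of at least 5 CPM and ratios that did not overlap between the tissues (57.8% of members had such ratios). Named besides were up to 2 called members per list and direction, of any class, and 8 genes always. For the antibody difference 4 per direction were named, among coding members called for it with a mean of at least 5 CPM. The members, the gene lists and this rule were chosen with earlier results of these data known. Rnu1b1 and Rnu1b2 were named through a list. Other snRNAs and the ribosomal proteins, histones and pairs outside the rule were named after their values were seen. Some members of the lists are not reported here by name. Lists are described by counts and medians, with no test. Transcript features come from the longest mRNA of each gene.

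The series design text puts an input and its IPs in each replicate, which pairs the libraries of a number within a tissue. The deviations from the group means correlated at -0.03 between retina input and Ythdf2 IP, at 0.11 between retina input and Ythdf1 IP, at -0.01 between the retina IPs and at -0.09 between the cortex IPs. Fits with and without the replicate block were run, beside other scalings (DESeq2 1.42.0 size factors), filters, tests (limma 3.58.1, DESeq2), a length correction and each library left out; the script was tested on simulated data.

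Near the minimum of 20 counts, 231 members with 20 or 21 counts in their lowest input had a median tissue difference of -0.24, and 228 genes with 18 or 19 had -0.10.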

Additional observations from a re-analysis of the deposited data

Results flagged for a closer look

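The tissue difference is itself a test of whether the ratio of IP to input differs between retina and cortex. It picked out 84 members higher in the retina and 87 lower, and the same test between the 2 antibodies picked out 486 members (edgeR quasi-likelihood test, adjusted p under 0.05). Among the named genes, chosen in part for large tissue differences, some passed the test of IP against input in both tissues, in opposite directions. Of all 10956 members 34 did so. Above input in the retina and below it in the cortex were Cog7, Pon2, Rcan2, Rcn2, St3gal5 and Sdha. Their tissue differences were 4.60 for Cog7, 4.15 for Pon2, 3.78 for Rcan2, 3.58 for Rcn2, 3.36 for St3gal5 and 2.33 for Sdha. Below input in the retina and above it in the cortex were Hist1h4j at -3.63 and the identical U1 genes Rnu1b1 and Rnu1b2 at -6.48. The library labelled cortex input replicate 1, outside the comparison, held 8967 counts of Camk2a, against 237 in cortex input replicate 2.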

How the results depend on the processing

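Of 39 called named genes, 38 kept their direction in all 22 alternatives, and 625 of 858 gene and alternative pairs were still called. Only the identical Rnu1b1 and Rnu1b2 were called in all 22; each of the 37 coding genes lost its call in 1 to 13 of them. The exception in direction was mt-Nd3, at 1.75 with all 12 libraries. Counts of members moved more, and the cause was not tested. The members higher and lower were 6 and 19 with the 7 libraries of the comparison, 0 and 5 with all 12, 17 and 24 with scaling by library totals, 263 and 314 with every gene of at least 1 count, and 142 and 133 with the members alone tested. They were 171 and 108 with the length trend taken out, 140 and 117 with that and the block, 292 and 377 with DESeq2, and 242 and 73 with limma on log2(FPKM + 1). Library totals moved the median of all genes from -0.13 to 0.18. Beside 0 higher with all 12 libraries, 2080 genes had an unadjusted p under 0.05. The antibody difference called 0 members with all 12 libraries, 13 with library totals, 1028 with every gene of at least 1 count, 824 with the members alone, 1201 with DESeq2 and 4 with limma. Leaving out 1 library gave 10 to 611 higher members, 21 to 285 lower and 13 to 1419 for the antibody difference; cortex input replicate 2 was not left out, since no other cortex input was used.

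With the replicate block 139 members were lower in place of 87. The block ended the calls of Uqcrfs1 (2.43), Sdha (2.20), Rrm1 (2.23) and mt-Nd3 (-3.20), changed no other call among the named genes, and turned the uncalled Kalrn to 0.083.

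The genes that reversed were otherwise all uncalled for the tissue difference. With all 12 libraries the values were -0.53 for Mab21l1, -0.67 for Zfp407, -0.24 for Ythdf1, -0.56 for Ythdf2, 1.07 for Kalrn and 0.56 for Urgcp. With library totals Kalrn was at 0.25 and Islr2 at 0.083. With the length trend taken out Zfp407 was at -0.038 and Ythdf2 at -0.020, and with the block as well at -0.18 and -0.10. With limma Zfp407 was at -0.33. Leaving out 1 library gave -0.40 to 0.97 for Ythdf2, -0.0161 to 0.35 for Ythdf1, -1.77 to 0.28 for Ythdf3, -0.31 to 0.16 for Kalrn, -0.73 to 0.15 for Islr2, -0.82 to 0.090 for Urgcp and -0.16 to 0.58 for Zfp407.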
